A study of Homo sapiens with 60 samples.

Results

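Water extracts of Poria Cocos, a wood-decay fungus whose sclerotium is used as a medicine, and of Glycyrrhizae Radix, the root of licorice, were compared in HepG2, a line of human liver cancer cells long kept in culture. They are called Poria and licorice from here on. RNA was sequenced after 24 h. The comparison rests on 6 of the 60 libraries of the series, 3 from cells given 500 µg/mL Poria and 3 from cells given 500 µg/mL licorice. The libraries were taken by their labels, and the pair was chosen with earlier results known, as extracts that both raise antioxidant genes. The same pair at 20 µg/mL, with 3 libraries each, and 3 vehicle libraries serve as further levels. The labels give vehicle as 0.1% DMSO and the text of the series as 2%, and no DMSO is given for the extract libraries. The labels leave it unsaid if a group's 3 libraries are separate cultures, so the p-values measure only the spread between libraries, which may be technical. No gene checks which extract a culture received.

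The column names of the deposited table begin with 2 for every Poria library and with 3 for every licorice library, and what that number stands for is not given. A difference between the extracts at 1 dose therefore cannot be told apart from a difference between these sets of columns. The tests therefore include the difference at 20 µg/mL and the change of that difference between the doses. The change is (Poria minus licorice at 500) minus (Poria minus licorice at 20), the same as the change over dose with Poria minus the change over dose with licorice. The columns of the vehicle libraries begin with A1. A difference of either extract from vehicle likewise cannot be told apart from a difference between sets of columns. Hepatocyte genes such as ALB, which encodes albumin, marked the cells as labelled: ALB stood at 11620, 12660 and 12930 CPM with Poria, against 10250, 11220 and 10970 CPM with licorice.

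HepG2 cells keep many functions of hepatocytes, among them the sensing of foreign compounds. The aryl hydrocarbon receptor binds planar ligands and turns on CYP1A1 and related enzymes, and the transcription factor NRF2 escapes its inhibitor KEAP1 when reactive compounds modify that protein and turns on genes for glutathione, thioredoxin, quinone reduction and NADPH supply. Hepatocytes also secrete hepcidin under the control of bone morphogenetic proteins (BMP) and SMAD factors, and bind zinc in metallothioneins. Growth factor signals through ERK act on immediate early genes such as EGR1, and hypoxia-inducible factors act on glycolysis genes and CA9.

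The regions upstream of 5 genes are shown because the genes differed widely between the extracts at 500 µg/mL or, in the case of GCLM, rose over dose with both. Each is the 250 bases before the start site in RefSeq on GRCh38.p14, 5′ to 3′ on the strand of the gene, with matches to a short motif in capitals, searched on both strands.
CYP1A1: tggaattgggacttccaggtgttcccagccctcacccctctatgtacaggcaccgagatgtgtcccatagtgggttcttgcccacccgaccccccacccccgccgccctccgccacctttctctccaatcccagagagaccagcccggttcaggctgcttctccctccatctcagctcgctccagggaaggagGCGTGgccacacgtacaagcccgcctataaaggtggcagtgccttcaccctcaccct
CA9: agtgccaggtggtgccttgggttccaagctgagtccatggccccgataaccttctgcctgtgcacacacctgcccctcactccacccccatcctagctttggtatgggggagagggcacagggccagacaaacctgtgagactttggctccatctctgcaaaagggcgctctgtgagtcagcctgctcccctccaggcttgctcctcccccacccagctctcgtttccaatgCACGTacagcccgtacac
EGR1: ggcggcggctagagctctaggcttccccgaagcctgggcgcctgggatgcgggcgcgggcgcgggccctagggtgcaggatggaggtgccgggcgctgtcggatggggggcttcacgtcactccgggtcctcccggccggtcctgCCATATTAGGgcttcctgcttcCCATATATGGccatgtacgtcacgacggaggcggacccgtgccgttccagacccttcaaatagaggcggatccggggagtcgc
HAMP: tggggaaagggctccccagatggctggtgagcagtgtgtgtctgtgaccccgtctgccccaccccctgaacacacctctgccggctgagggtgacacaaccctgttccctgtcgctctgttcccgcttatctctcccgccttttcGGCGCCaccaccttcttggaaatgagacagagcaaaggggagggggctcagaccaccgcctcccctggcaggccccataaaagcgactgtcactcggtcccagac
GCLM: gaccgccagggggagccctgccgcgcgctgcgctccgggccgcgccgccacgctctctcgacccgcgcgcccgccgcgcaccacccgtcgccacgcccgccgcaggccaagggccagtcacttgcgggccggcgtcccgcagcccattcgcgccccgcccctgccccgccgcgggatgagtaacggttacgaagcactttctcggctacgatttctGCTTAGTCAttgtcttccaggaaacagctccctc
In CYP1A1 (chr15:74725529-74725778, minus strand) the capitals mark the core of the xenobiotic response element, GCGTG or CACGC, which 32.2% of all 35116 such windows hold. In CA9 (chr9:35673678-35673927, plus strand) they mark the core of the hypoxia response element, ACGTG or CACGT, held by 18.5% of all windows and by 21 of 55 windows (38.2%) of the hypoxia and glycolysis list. In EGR1 (chr5:138465229-138465478, plus strand) they mark 2 CArG boxes, the binding motif of serum response factor, held by 1.16% of all windows. In HAMP (chr19:35282278-35282527, plus strand) they mark GGCGCC, a palindrome known as a BMP response element, held by 16.4% of all windows. In GCLM (chr1:93909431-93909680, minus strand) they mark the core of the antioxidant response element, TGACNNNGC or GCNNNGTCA, held by 10.9% of all windows. Genes with several start sites have several windows, and a match describes the letters only.

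At 500 µg/mL, Poria and licorice left the cells with widely different transcriptomes. At 20 µg/mL the difference was smaller, by a count of genes that varied with the libraries used. Of 16093 genes tested in edgeR, 6734 (41.8%) passed an adjusted p of 0.05 at 500 µg/mL, 3335 (20.7%) higher and 3399 (21.1%) lower with Poria. Counts of list members called at 500 µg/mL stand beside these shares. Of the 6734, 577 (3.59% of all genes) differed at least 2-fold, 381 higher and 196 lower. At 20 µg/mL 67 genes (0.416%) passed, 35 higher and 32 lower, with 2520 at an unadjusted p under 0.05. That low-dose count rests on single libraries: it was 617 without licorice replicate 1, 12 without Poria replicate 1, 7 without licorice replicate 2 and 15 without licorice replicate 3. The DESeq2 Wald test called 259 at 20 µg/mL. Of the 67, 35 also passed at 500 µg/mL with the same sign and 7 with the opposite sign. The libraries of the extracts did not overlap for 8141 genes (50.6%) at 500 µg/mL, with Poria above licorice for 25.1% of all genes and below it for 25.5%, and for 2627 genes (16.3%) at 20 µg/mL. The median absolute log2 difference over all genes was 0.209 at 500 and 0.0902 at 20 µg/mL.

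The difference between the extracts changed between the doses for 4155 genes (25.8%), toward Poria for 2180 (13.5%) and toward licorice for 1975 (12.3%). In all 3868 genes (24.0%) passed both tests with the same sign, 2042 (12.7%) higher and 1826 (11.3%) lower with Poria. These 3868 make up 57.4% of the genes called at 500 µg/mL, and 1 gene passed both with opposite signs. Between 500 and 20 µg/mL, Poria changed 6995 genes (43.5%; 22.3% rose and 21.2% fell) and licorice 3428 (21.3%; 11% rose and 10.3% fell). Those 2 comparisons share no library. Counts of list members called over dose stand beside the shares of these comparisons. Against vehicle, 7659 genes (47.6%) passed with Poria at 500 µg/mL and 5213 (32.4%) with licorice. With both extracts 974 genes (6.05%) rose over dose, which is 27.2% of the genes that rose with Poria and 55.1% of those that rose with licorice. Likewise 815 genes (5.06%) fell with both, or 23.9% and 49.1% of the genes that fell with Poria and with licorice. Another 408 genes (2.54%) moved in opposite directions over dose, 259 rising with Poria and falling with licorice and 149 the reverse.

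**Figure D1:**
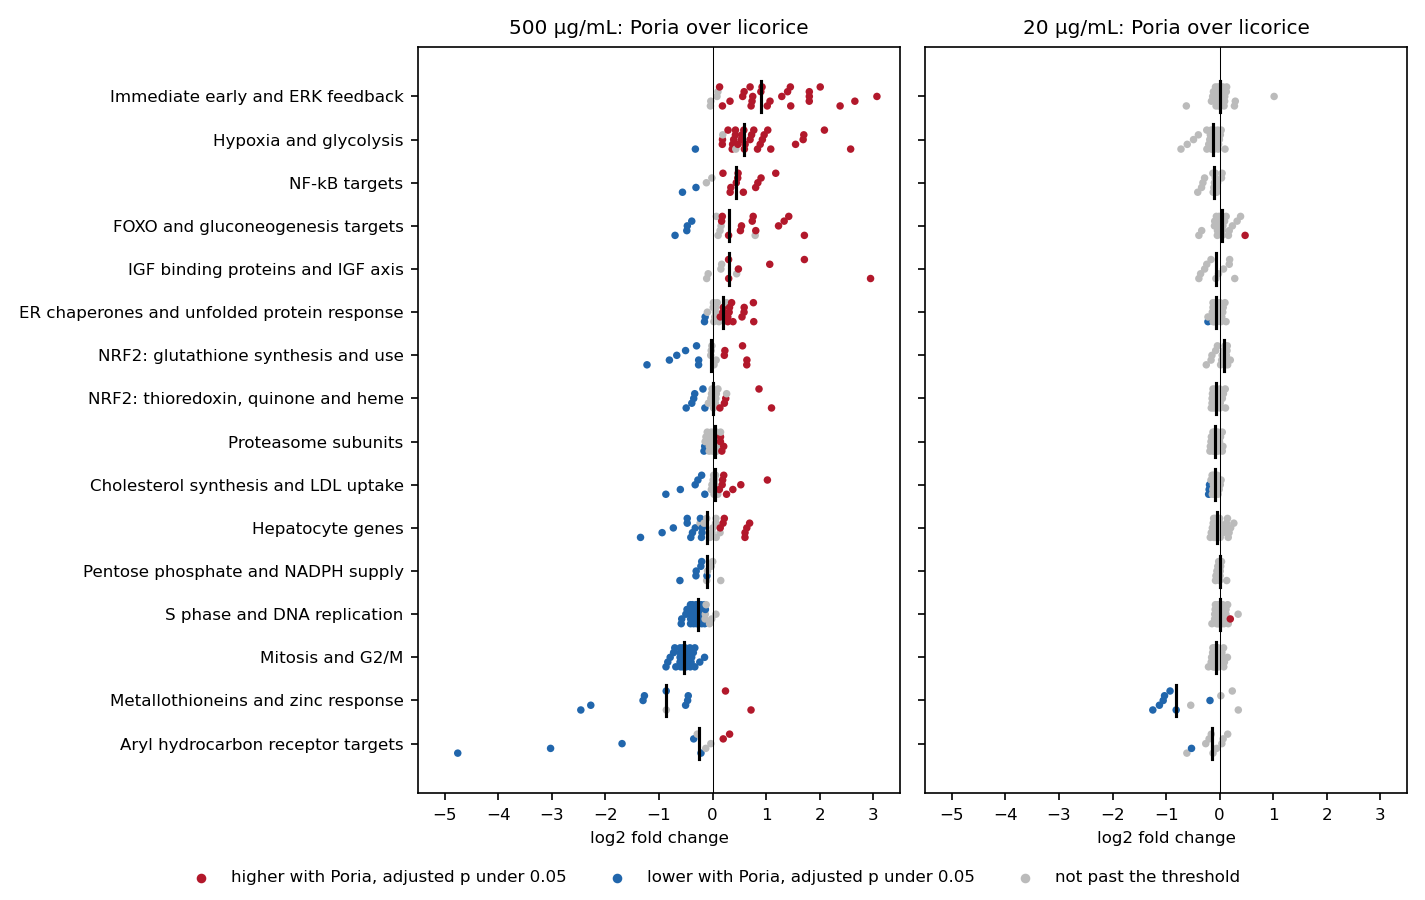
Log2 fold change of Poria over licorice at 500 µg/mL (left) and at 20 µg/mL (right) for the tested members of 16 gene lists. Points are genes, coloured by the edgeR call, black bars are list medians, and CYP1A2 and CYP1B1 are left out because Poria libraries held at most 3 of their counts; at 500 µg/mL the immediate early list has a median of 0.91 and the mitosis list one of -0.54, while at 20 µg/mL the metallothioneins alone among these lists have a median beyond 0.5 in size, at -0.81.

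Depth was similar in all groups. The 15 libraries of Poria, licorice and vehicle held 22850938 to 32059273 counts with a median of 27714411, so 3 counts are 0.094 to 0.131 CPM (counts relative to the library total) before scaling, a floor that covers counting error only. All levels given are CPM scaled with edgeR's TMM factors. Over 10597 genes with at least 5 CPM, the root mean square log2 difference between libraries was 0.307 to 0.33 across the extracts at 500 µg/mL, against 0.112 to 0.142 within Poria 500 and 0.112 to 0.124 within licorice 500, and no library of these groups stood apart. At 20 µg/mL it was 0.112 to 0.205 across the extracts. There licorice replicate 1 lay 0.112 from Poria replicate 2, against 0.156 and 0.13 from licorice replicates 2 and 3. Mitochondrially encoded genes took 12.6% of the counts with Poria (11.6% to 13.1%), against 10.2% with licorice (8.9% to 11.6%) at 500 µg/mL, and 11.9% against 9.1% at 20 µg/mL. The part of this difference in the other results was not tested. CPM are shares of a library, so fewer cells with a transcript and less of it per cell cannot be told apart.

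Most tested genes of the aryl hydrocarbon receptor were lower with Poria, several of them by a wide margin. CYP1A1, the P450 enzyme that oxidizes polycyclic aromatic hydrocarbons, stood at 30.7, 23.4 and 24.7 CPM with Poria, against 702, 719.7 and 719.9 CPM with licorice at 500 µg/mL. Every licorice library lay far above every Poria library. The gene was 27.1-fold lower with Poria (log2 -4.76 ± 0.074, edgeR adjusted p = 3.11e-44). At 20 µg/mL the values were 14.4, 13.4 and 13.8 CPM with Poria, against 19.9, 20.7 and 19.2 CPM with licorice, a smaller difference of -0.53 ± 0.084 that also passed. CYP1A1 rose over dose with Poria by 0.93 ± 0.083 on the log2 scale and with licorice by 5.16 ± 0.075.

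ALDH3A1, an aldehyde dehydrogenase, followed CYP1A1 at lower levels, with 1.93, 1.1 and 1.09 CPM with Poria, against 11.5, 11.2 and 11.5 CPM with licorice at 500 µg/mL (log2 -3.02 ± 0.15, edgeR adjusted p = 3.52e-22). Its Poria values overlapped those of vehicle, which were 1.81, 1.91 and 1.93 CPM, and over dose it did not pass with Poria (-0.14 ± 0.19, edgeR adjusted p = 0.609). The repressor of the receptor, AHRR, was at 0.849, 0.507 and 0.52 CPM with Poria, against 2.08, 2 and 2.06 CPM with licorice (log2 -1.69 ± 0.25, edgeR adjusted p = 1.95e-07). CYP1A2, a hepatic relative of CYP1A1, was at 2.08, 2.21 and 2.48 CPM with licorice, whereas the 3 Poria libraries held at most 3 counts of it each, so no fold is given. CYP1B1 likewise had at most 1 count per Poria library, against 0.451, 0.491 and 0.826 CPM with licorice. TIPARP, a further target of the receptor, did not pass (log2 -0.13 ± 0.057, edgeR adjusted p = 0.071). The receptor gene AHR itself was higher with Poria (log2 0.32 ± 0.09, edgeR adjusted p = 0.0034).

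Over the list of 14 target and pathway genes, 12 were tested, of which 7 were lower and 2 higher with Poria at 500 µg/mL, where 21.1% of all genes were lower and 20.7% higher. All 7 that were lower also passed for the change between the doses with the same sign. Of all genes called at 500 µg/mL in either direction, 57.4% did. The 2 tests share the 500 µg/mL libraries. With licorice 7 of the 12 rose over dose and 1 fell (11% and 10.3% of all genes). With Poria 4 rose and 0 fell (22.3% and 21.2% of all genes). Among the 7 are CYP1A2 and CYP1B1, with the few counts given above, and NQO1, which NRF2 drives as well. With only genes of at least 1 CPM tested, 4 were lower.

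**Figure D2:**
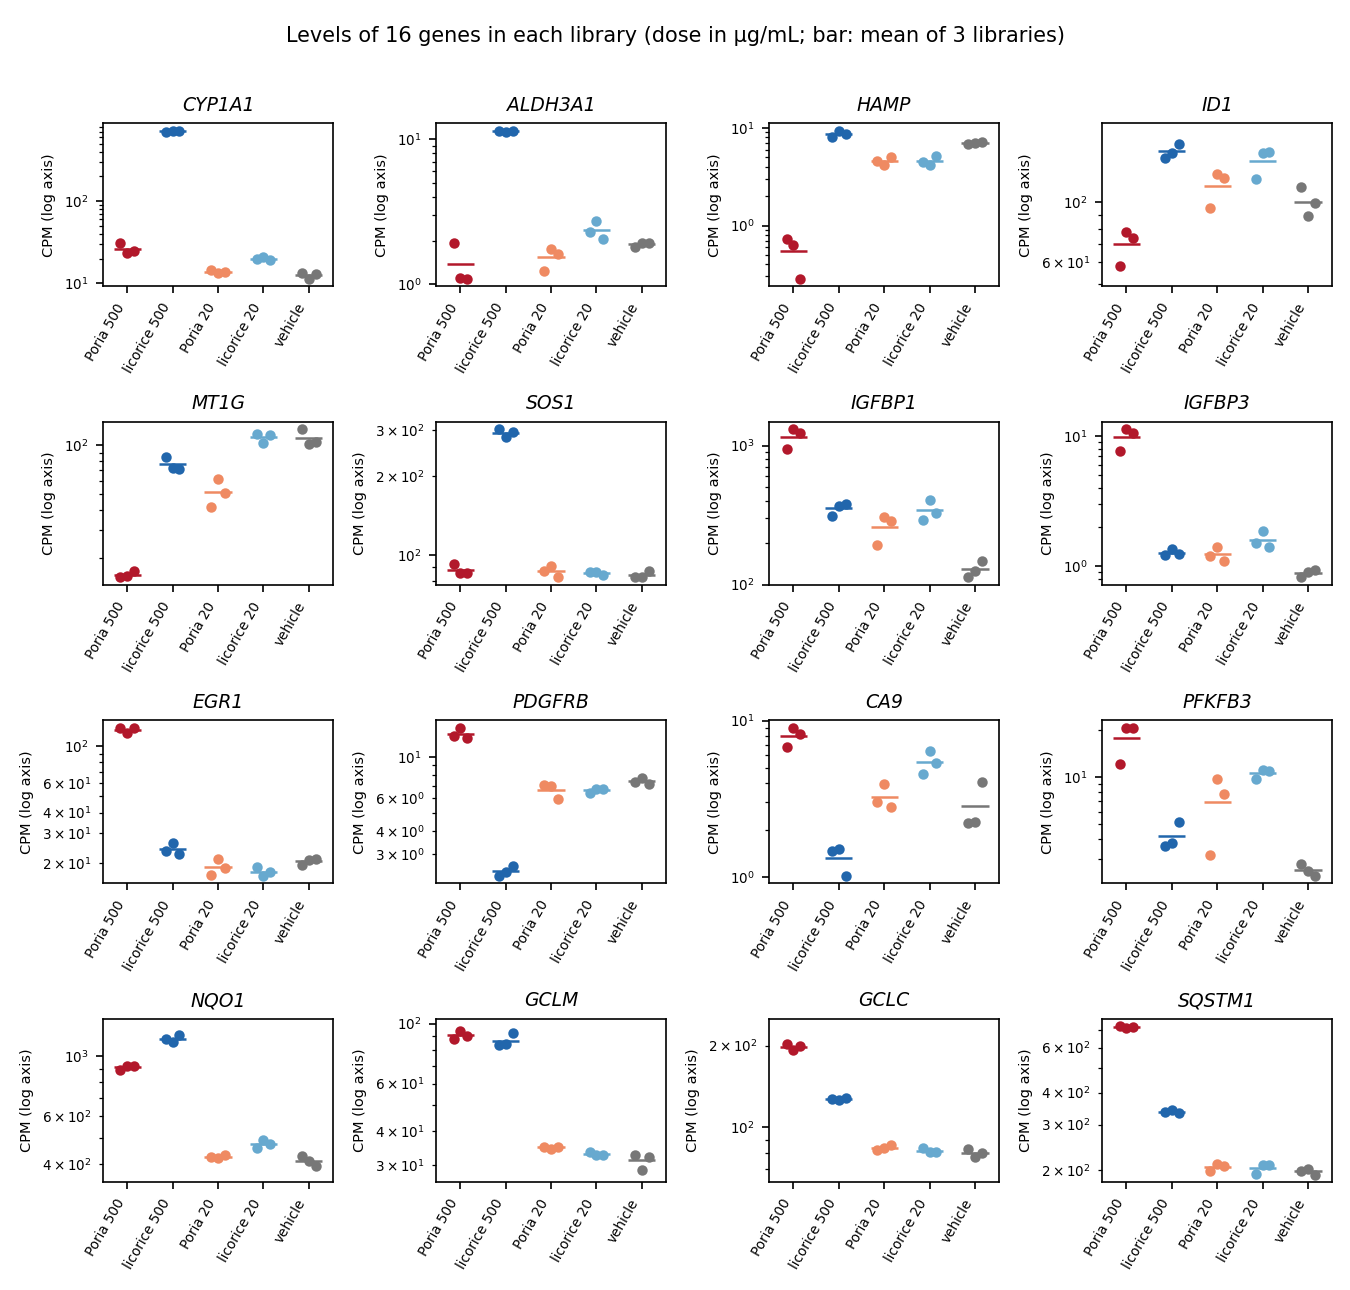
Levels of 16 genes in CPM on logarithmic axes in the 3 libraries of each group, with bars at the mean; the groups are Poria and licorice at 500 µg/mL, the same pair at 20 µg/mL, and vehicle. CYP1A1 and SOS1 stand apart with licorice at 500 µg/mL, EGR1, IGFBP1 and IGFBP3 with Poria at 500 µg/mL, and NQO1 and GCLM are raised in both groups at 500 µg/mL.

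Most tested NRF2 targets, the antioxidant genes, rose over dose with each extract. Since the pair was chosen for raising such genes, the shared rise is a description and supports nothing. Of 21 tested genes for thioredoxin, quinone and heme metabolism, 18 rose and 1 fell over dose with Poria and 16 rose and 0 fell with licorice, and 15 rose with both (6.05% of all genes did). Of 17 tested genes for the synthesis and use of glutathione, 10 rose and 4 fell with Poria, 10 rose and 1 fell with licorice, and 9 rose with both. The 4 falls with Poria were near the share of all genes, 21.2%. The median log2 change over dose was 0.43 with Poria and 0.42 with licorice in the thioredoxin list, and 0.31 and 0.41 in the glutathione list, where the medians of all genes were -0.01 and 0.00033. At 500 µg/mL the lists had no common direction between the extracts: 5 were higher and 6 lower of the 21, and 5 higher and 7 lower of the 17, with medians of 0.018 and -0.024.

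GCLM, the modifier subunit of glutamate-cysteine ligase, which starts glutathione synthesis, came to like levels with both, at 87.7, 94 and 89.8 CPM with Poria, against 83.1, 84.1 and 92 CPM with licorice. The libraries overlapped, and the log2 difference of 0.067 ± 0.048 did not pass (edgeR adjusted p = 0.273); the change over dose was 1.38 ± 0.051 with Poria and 1.39 ± 0.051 with licorice. TXNRD1, cytosolic thioredoxin reductase, behaved alike in that its difference of 0.071 ± 0.039 did not pass and its changes over dose were 1.07 ± 0.04 with Poria and 1.05 ± 0.04 with licorice. HMOX1, heme oxygenase 1, rose little over dose (0.26 ± 0.053 with Poria and 0.29 ± 0.052 with licorice).

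GCLC, the catalytic subunit of the same ligase, differed: it was at 203, 193 and 199 CPM with Poria, against 127, 126 and 128 CPM with licorice, with all Poria values above all licorice values (log2 0.64 ± 0.034, edgeR adjusted p = 2.66e-21). At 20 µg/mL the difference did not pass (0.038 ± 0.035), and over dose it rose by 1.24 ± 0.035 with Poria and 0.64 ± 0.035 with licorice. SLC7A11, the cystine transporter, was at 90.7, 97.7 and 91.5 CPM with Poria, against 66, 61.4 and 62.3 CPM with licorice (log2 0.56 ± 0.072, edgeR adjusted p = 6.44e-09). The bile pump gene ABCC2, which exports glutathione conjugates, was at 729 CPM with Poria and 468 CPM with licorice on average (log2 0.64 ± 0.037, edgeR adjusted p = 9.33e-20).

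SQSTM1, the autophagy receptor p62, which binds KEAP1, showed the widest gap of the NRF2 lists on the side of Poria, with 726, 718 and 723 CPM with Poria, against 336, 342 and 332 CPM with licorice. The groups stood far apart relative to their spread (log2 1.10 ± 0.038, edgeR adjusted p = 6.24e-29), and at 20 µg/mL their difference did not pass (0.012 ± 0.038). Its change over dose was 1.82 ± 0.038 with Poria and 0.73 ± 0.038 with licorice. MAFF, a small MAF partner of NRF2, was higher with Poria as well (log2 0.87 ± 0.09, edgeR adjusted p = 2.35e-11), while SRXN1, sulfiredoxin, was higher at 500 µg/mL (0.25 ± 0.047) but did not pass for the change between the doses (edgeR adjusted p = 0.128).

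On the side of licorice stood NQO1, the quinone reductase, at 888, 917 and 922 CPM with Poria, against 1155, 1124 and 1201 CPM with licorice (log2 -0.35 ± 0.044, edgeR adjusted p = 3.34e-09). It rose with both extracts (1.10 ± 0.045 with Poria and 1.29 ± 0.045 with licorice), and the change of the difference between the doses, -0.20 ± 0.062, passed with all libraries (edgeR adjusted p = 0.0152) and not without licorice 20 replicate 1 (0.0522). OSGIN1, an oxidative stress response gene, was lower with Poria at 500 µg/mL (-0.33 ± 0.055), and its change between the doses did not pass (edgeR adjusted p = 0.0632). EPHX1, microsomal epoxide hydrolase, was lower with Poria (log2 -0.49 ± 0.046, edgeR adjusted p = 8.74e-13). Its change over dose was -0.012 ± 0.046 with Poria, which did not pass, and 0.40 ± 0.045 with licorice, which did, and the difference of these changes passed (-0.41 ± 0.065, edgeR adjusted p = 1.43e-06).

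The alpha class glutathione transferases moved apart. GSTA2 was at 8.64, 6.8 and 8.37 CPM with Poria, against 18.9, 18.8 and 18.1 CPM with licorice (log2 -1.22 ± 0.093, edgeR adjusted p = 9.94e-16) and GSTA1 at 24 CPM with Poria and 42 CPM with licorice on average (log2 -0.81 ± 0.076, edgeR adjusted p = 1.21e-12). Reads of these paralogs are divided between them by the quantification, so their sum is the safer value: 31.7, 32.7 and 31.4 CPM with Poria, against 57.5, 63.0 and 61.1 CPM with licorice at 500 µg/mL. At 20 µg/mL the sum averaged 60.6 ± 4.63 CPM with Poria and 55.3 ± 2.3 CPM with licorice, and with vehicle 56.8 ± 4.91 CPM (SD, n = 3 each). GSTA2 fell over dose with Poria (-1.11 ± 0.093) and rose with licorice (0.32 ± 0.083).

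Some aldo-keto reductases, which reduce reactive carbonyls and steroids with NADPH, rose with both extracts. AKR1B10 reached 361, 377 and 356 CPM with Poria, against 212, 231 and 236 CPM with licorice (log2 0.69 ± 0.053, edgeR adjusted p = 1.61e-15), with rises over dose of 2.62 ± 0.057 with Poria and 2.18 ± 0.058 with licorice; a small difference of 0.24 ± 0.059 was already present at 20 µg/mL. AKR1C1 was higher with Poria (1069 CPM with Poria and 805 CPM with licorice; log2 0.41 ± 0.07, edgeR adjusted p = 3.63e-06). AKR1C2 was lower, at 382, 381 and 396 CPM with Poria, against 621, 634 and 666 CPM with licorice (log2 -0.73 ± 0.075, edgeR adjusted p = 1.86e-11). These paralogs are nearly identical in sequence, and the sum of AKR1C1, AKR1C2 and AKR1C3 differed by less than its spread, at 1530 ± 39.4 CPM with Poria and 1512 ± 71.8 CPM with licorice at 500 µg/mL, and 645 ± 43.2 CPM with Poria and 627 ± 40.6 CPM with licorice at 20 µg/mL (SD, n = 3 each). How the reads were divided between the paralogs in each library was not tested. Of the 9 tested members of the list, 2 were higher and 4 lower with Poria at 500 µg/mL (20.7% and 21.1% of all genes). Over dose 4 rose with both (6.05% of all genes did). As the pair was chosen for raising antioxidant genes, this shared rise too is a description and supports nothing.

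Genes that supply NADPH differed in part. IDH1, cytosolic isocitrate dehydrogenase, was lower with Poria (log2 -0.31 ± 0.035, edgeR adjusted p = 4.92e-10). TKT and TALDO1, of the non-oxidative branch of the pentose phosphate pathway, rose over dose with both extracts by like amounts (0.49 ± 0.037 and 0.42 ± 0.05 with Poria, 0.49 ± 0.037 and 0.44 ± 0.05 with licorice). Of 11 tested members, 0 were higher and 6 lower with Poria at 500 µg/mL (20.7% and 21.1% of all genes). Of the 6, 4 also passed for the change between the doses. Proteasome subunit genes, a further set that NRF2 family factors act on, rose over dose with both extracts, 26 of 32 with Poria and 18 with licorice, 17 of them shared, where 22.3%, 11% and 6.05% of all genes did. Given how the pair was chosen, this shared rise is also a description only. At 500 µg/mL 4 subunit genes were higher and 2 lower with Poria, or 11 and 0 after subtracting the difference of the pair Atractylodis Rhizoma and Panax Ginseng at 20 µg/mL, whose columns begin with the same numbers.

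**Figure D3:**
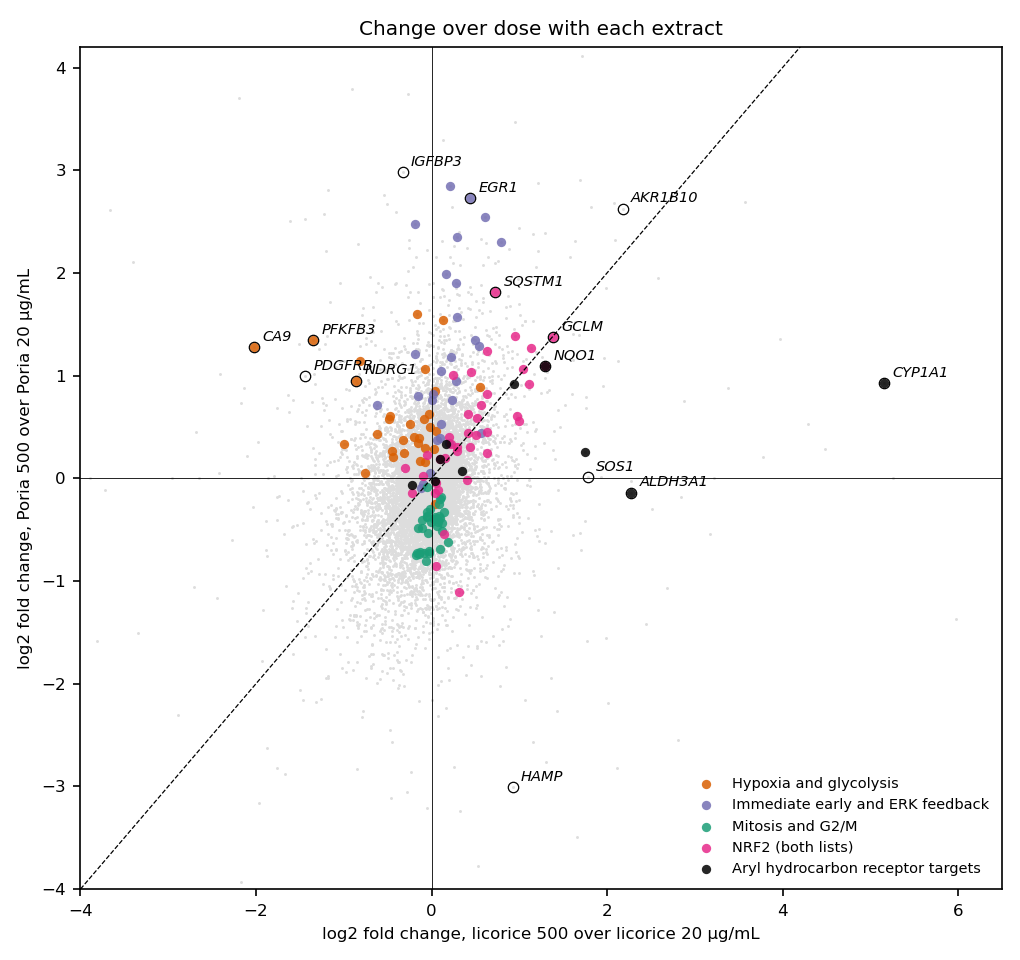
Log2 fold change between 500 and 20 µg/mL with Poria (vertical) and with licorice (horizontal) for each tested gene in grey, with 5 groups of genes in colour and the line of equal change dashed. Open circles ring the labelled genes, both those in the coloured groups and those outside them. In all 46 genes lie outside the axes, and CYP1A2 and CYP1B1 are left out. NRF2 genes spread to the upper right along the line, hypoxia and immediate early genes rise along the Poria axis, mitosis genes fall along it, and CYP1A1 lies far out along the licorice axis at 0.93 with Poria and 5.16 with licorice.

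HAMP and the BMP target genes ID1, ID3 and SMAD7 were lower with Poria, while their list as a whole was split. HAMP, which encodes the hormone hepcidin that closes iron export, was at 0.733, 0.634 and 0.284 CPM with Poria, against 8.05, 9.41 and 8.79 CPM with licorice at 500 µg/mL, and was 15.4-fold lower with Poria (log2 -3.94 ± 0.23, edgeR adjusted p = 4.23e-20). The values at 20 µg/mL were 4.59, 4.15 and 5.03 CPM with Poria, against 4.45, 4.14 and 5.2 CPM with licorice, overlapping and between the 2 groups at 500 µg/mL. Over dose HAMP fell with Poria (-3.01 ± 0.25) and rose with licorice (0.92 ± 0.15). Vehicle libraries had 6.9, 7.05 and 7.24 CPM.

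ID1, an inhibitor of helix-loop-helix factors and a classical BMP target, was at 58.4, 77.6 and 73.9 CPM with Poria, against 145, 153 and 164 CPM with licorice (log2 -1.14 ± 0.12, edgeR adjusted p = 5.60e-11). ID3, a relative of ID1, was at 8.83, 10.3 and 8.75 CPM with Poria, against 21.5, 22.9 and 23.4 CPM with licorice (log2 -1.28 ± 0.085, edgeR adjusted p = 9.60e-18), and it fell over dose with Poria (-0.79 ± 0.088) and rose with licorice (0.22 ± 0.076). SMAD7, the inhibitory SMAD of the same pathway, was at 3.09, 3.38 and 3.83 CPM with Poria, against 6.67, 6.3 and 6.91 CPM with licorice (log2 -0.96 ± 0.10, edgeR adjusted p = 2.82e-11). In all these genes every Poria library lay below every licorice library. The BMP receptor genes BMPR1A and BMPR2 differed little (-0.067 ± 0.056, which did not pass, and 0.17 ± 0.068, which did). SLC40A1, the iron exporter that hepcidin acts on, was higher with Poria (log2 0.27 ± 0.043, edgeR adjusted p = 5.76e-07). Over the 26 genes of the list, 22 were tested, and 7 were higher and 7 lower (20.7% and 21.1% of all genes), with a median of -0.072. For the change between the doses 4 and 5 of these passed. Values of ID2, SMAD6 and SMAD9, further tested members, are not given here.

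Most metallothioneins, the cysteine-rich proteins that bind zinc and copper, were lower with Poria at both doses. MT1G stood at 15.2, 15.6 and 16.6 CPM with Poria, against 84.7, 72.8 and 71 CPM with licorice at 500 µg/mL (log2 -2.27 ± 0.15, edgeR adjusted p = 1.09e-17) and at 41.3, 61.9 and 51 CPM with Poria, against 118, 103 and 116 CPM with licorice at 20 µg/mL (log2 -1.12 ± 0.13, edgeR adjusted p = 1.16e-07). MT1F was at 4.74, 4.14 and 3.78 CPM with Poria, against 24.6, 21.3 and 24.2 CPM with licorice at 500 µg/mL (log2 -2.46 ± 0.14, edgeR adjusted p = 8.95e-20), with a difference of -0.93 ± 0.10 at 20 µg/mL. For both genes the groups did not overlap at either dose, and the difference was wider at 500 µg/mL (change between the doses -1.15 ± 0.20 for MT1G and -1.53 ± 0.18 for MT1F). MT1X differed by about the same at 500 (-0.86 ± 0.11) and 20 µg/mL (-0.81 ± 0.10), with a change between the doses of -0.053 ± 0.14 that did not pass. MT2A differed by -0.50 ± 0.12 at 500 and by -1.05 ± 0.13 at 20 µg/mL, and its gap was narrower at the higher dose (change between the doses 0.55 ± 0.18, edgeR adjusted p = 0.0158).

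Counts of the MT1 genes are divided among close paralogs, so the sum of 6 of them is given too. It was 110, 124 and 124 CPM with Poria, against 349.6, 321 and 329.9 CPM with licorice at 500 µg/mL, and 194.5, 255 and 241 CPM with Poria, against 458, 468 and 475 CPM with licorice at 20 µg/mL. Vehicle libraries had 512, 422 and 416 CPM. In the other pair of extracts whose columns begin with 2 and 3, both at 20 µg/mL, the sum was 461, 444 and 442 CPM with Atractylodis Rhizoma and 558, 549 and 528 CPM with Panax Ginseng. In that pair the log2 difference was -0.25 for MT1G and -0.22 for MT1F, neither of which passed (edgeR adjusted p = 0.236 and 0.177). MT1E differed there by -0.32 and did not pass (edgeR adjusted p = 0.0903), and MT1M, at means of 0.763 CPM with Atractylodis Rhizoma and 1.55 CPM with Panax Ginseng, was lower with Atractylodis Rhizoma (-1.01, edgeR adjusted p = 0.0233). In that pair, among 16093 genes 754 (4.69%) passed. Of 11 tested genes of the list, 2 were higher and 8 lower with Poria at 500 µg/mL and 0 and 7 at 20 µg/mL, where 0.217% and 0.199% of all genes passed. The zinc exporter gene SLC30A1, which responds to zinc as metallothioneins do, was lower with Poria (log2 -0.47 ± 0.038, edgeR adjusted p = 1.74e-14). SLC39A10, a zinc importer, was higher (log2 0.72 ± 0.08, edgeR adjusted p = 1.76e-10).

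**Figure D4:**
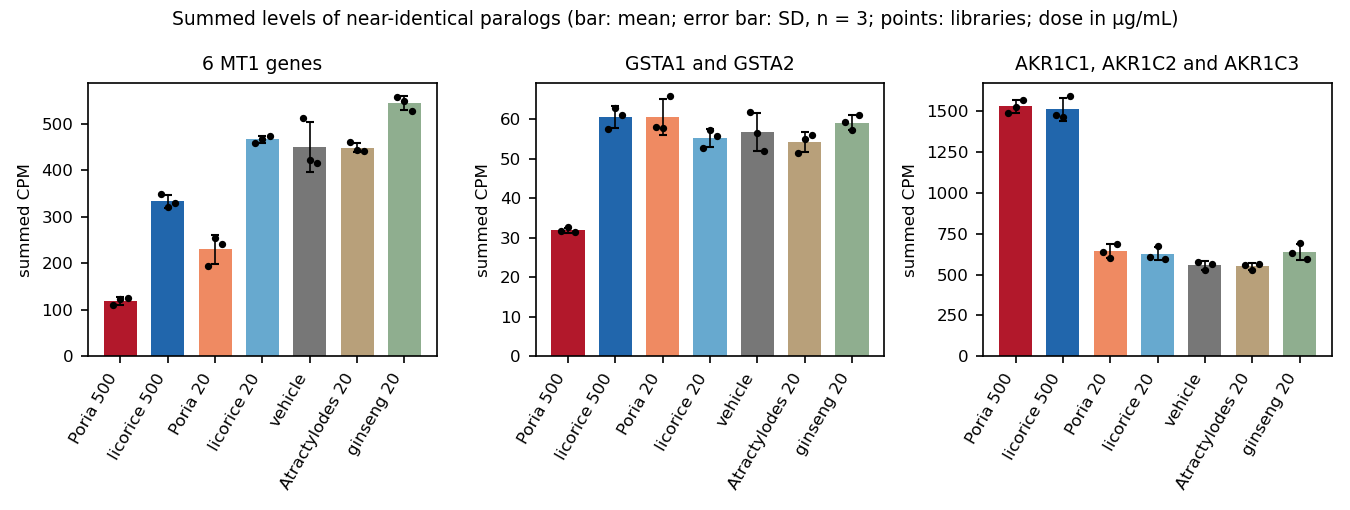
Summed CPM of 6 MT1 genes (left), GSTA1 and GSTA2 (middle) and AKR1C1, AKR1C2 and AKR1C3 (right), with bars for the mean of 3 libraries, error bars for the SD and points for libraries, in Poria and licorice at 500 and 20 µg/mL, vehicle, and Atractylodis Rhizoma and Panax Ginseng at 20 µg/mL. The MT1 sum with Poria is below that of licorice at both doses, the GSTA sum is low with Poria at 500 µg/mL, and the AKR1C sum is alike with both extracts at 500 µg/mL.

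Immediate early genes and feedback genes of ERK signalling were higher with Poria. EGR1, a zinc finger factor induced within minutes by growth factors, was at 129, 119.5 and 128 CPM with Poria, against 23.4, 26.2 and 22.7 CPM with licorice, and was 5.21-fold higher with Poria (log2 2.38 ± 0.075, edgeR adjusted p = 2.32e-30). The libraries overlapped at 20 µg/mL, at 16.9, 21 and 18.7 CPM with Poria, against 18.9, 16.7 and 17.6 CPM with licorice. It rose over dose with Poria by 2.73 ± 0.076 and with licorice by 0.44 ± 0.083, and the difference of these rises passed (2.29 ± 0.11, edgeR adjusted p = 7.06e-22).

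IER3, an immediate early gene, reached 256, 219 and 231 CPM with Poria, against 86, 86.5 and 84.2 CPM with licorice (log2 1.46 ± 0.059, edgeR adjusted p = 8.92e-26). DUSP1, a phosphatase of MAP kinases, reached 27.9, 30.9 and 32 CPM with Poria, against 10.6, 12.3 and 11.4 CPM with licorice (log2 1.40 ± 0.067, edgeR adjusted p = 7.15e-23). SPRY4, a feedback inhibitor of receptor tyrosine kinases, was at 142, 119.7 and 123 CPM with Poria, against 54.3, 52.2 and 50.4 CPM with licorice (log2 1.29 ± 0.062, edgeR adjusted p = 5.49e-23). Every Poria library lay above every licorice library in these genes. KLF6 was higher as well (log2 1.07 ± 0.059, edgeR adjusted p = 1.00e-20), and FOS stood at 7.32 CPM with Poria and 1.81 CPM with licorice on average (log2 2.01 ± 0.18, edgeR adjusted p = 1.75e-13). Of 28 tested members of the list, 24 were higher and 0 lower with Poria at 500 µg/mL, with a median of 0.91 against -0.0076 for all genes, and 21 of the 24 passed for the change between the doses. Over dose 24 rose and 1 fell with Poria (22.3% and 21.2% of all genes). With licorice 9 rose and 1 fell (11% and 10.3% of all genes), and at 20 µg/mL 0 passed. MYC, another growth factor response gene, did not pass between the extracts (-0.04 ± 0.054, edgeR adjusted p = 0.593) and rose over dose with both (0.45 ± 0.054 with Poria and 0.57 ± 0.054 with licorice). SOS1, the exchange factor that loads RAS upstream of ERK, was instead high with licorice, at 92.2, 85.4 and 85.2 CPM with Poria, against 302, 282 and 294 CPM with licorice (log2 -1.74 ± 0.055, edgeR adjusted p = 2.70e-30). At 500 µg/mL its levels with Poria were close to those at 20 µg/mL, which were 86.9, 90.7 and 82.5 CPM with Poria, against 85.9, 86.1 and 84 CPM with licorice.

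Genes of hypoxia and glycolysis were higher with Poria, and many of them fell over dose with licorice. Only 2 of the 31 tested were lower with licorice at 500 µg/mL than with vehicle. CA9, a membrane carbonic anhydrase, was at 6.75, 9 and 8.18 CPM with Poria, against 1.46, 1.51 and 1.01 CPM with licorice at 500 µg/mL (log2 2.58 ± 0.23, edgeR adjusted p = 2.84e-13) and at 3.03, 3.93 and 2.79 CPM with Poria, against 4.52, 6.39 and 5.39 CPM with licorice at 20 µg/mL. It rose over dose with Poria (1.28 ± 0.20) and fell with licorice (-2.02 ± 0.24). PFKFB3, which makes the activator of phosphofructokinase, was at 12.2, 20.8 and 20.7 CPM with Poria, against 3.61, 3.76 and 5.14 CPM with licorice (log2 2.09 ± 0.30, edgeR adjusted p = 1.23e-07), again with a rise over dose with Poria (1.35 ± 0.28) and a fall with licorice (-1.35 ± 0.32). Its libraries were uneven, with Poria replicate 1 the lowest of its group at both doses, and vehicle libraries had 2.76, 2.5 and 2.32 CPM, below every extract library. Poria replicate 1 was likewise the lowest of its group at both doses for IGFBP1, TUBB1, TNS1, CHST15, NDRG1 and PLIN2. For EGR1 and IER3 it was the highest of its group at 500 µg/mL. The cause was not tested. NDRG1, a stress gene induced by hypoxia, was at 97.3, 124 and 125 CPM with Poria, against 37.2, 34.7 and 35.2 CPM with licorice (log2 1.69 ± 0.13, edgeR adjusted p = 1.15e-15).

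The glycolytic enzymes followed with smaller differences. PKM, pyruvate kinase, was at 981, 1001 and 1027 CPM with Poria, against 672, 676 and 658 CPM with licorice (log2 0.58 ± 0.033, edgeR adjusted p = 1.77e-20), ALDOA, aldolase A, differed by 0.55 ± 0.036, and ENO2, an enolase, by 1.03 ± 0.059. SLC2A1, the glucose transporter GLUT1, was at 447, 500.5 and 483 CPM with Poria, against 288, 299 and 292 CPM with licorice (log2 0.70 ± 0.06, edgeR adjusted p = 7.92e-14), and it rose over dose with Poria (0.85 ± 0.061) with no change that passed with licorice (0.042 ± 0.06). In all 31 genes of the list were tested, and 28 were higher and 1 lower with Poria at 500 µg/mL, with a median of 0.60; all 29 passed for the change between the doses with the same sign. The exception was PFKL, the liver phosphofructokinase (-0.32 ± 0.048). Over dose 26 rose and 1 fell with Poria (22.3% and 21.2% of all genes). With licorice 0 rose and 14 fell (11% and 10.3% of all genes), with 12 genes moving in opposite directions against 2.54% of all genes. At 20 µg/mL 0 passed between the extracts, with a median of -0.11. Yet for 10 of the 31 genes every Poria library lay below every licorice library at 20 µg/mL, and for 0 above. Among all 16093 genes 1410 lay below in this way. For CA9 the difference at 20 µg/mL was -0.72 ± 0.20 (edgeR adjusted p = 0.072). A gap in this direction at the low dose widens the change between the doses. Against vehicle, 29 rose and 1 fell with Poria at 500 µg/mL, with a median of 0.66. With licorice at 500 µg/mL 10 rose and 2 fell against vehicle, with a median of 0.10. Among all 16093 genes, 3846 rose and 3813 fell against vehicle with Poria, and 2693 rose and 2520 fell with licorice.

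Targets of NF-kB, the inflammatory transcription factor, were mostly higher with Poria. ICAM1, an adhesion molecule, was at 182, 165 and 172 CPM with Poria, against 99.1, 102 and 95.6 CPM with licorice (log2 0.81 ± 0.037, edgeR adjusted p = 1.11e-23). CCL20, a chemokine, was at 145, 156 and 162 CPM with Poria, against 84.7, 89.3 and 83.2 CPM with licorice (log2 0.85 ± 0.10, edgeR adjusted p = 3.65e-10). RELB, a subunit of NF-kB, was at 8.09 CPM with Poria and 3.58 CPM with licorice on average (log2 1.18 ± 0.12, edgeR adjusted p = 3.53e-12). The inhibitor gene NFKBIA, itself a target, went the other way (log2 -0.31 ± 0.044, edgeR adjusted p = 6.33e-08). Of 15 tested members 11 were higher and 2 lower at 500 µg/mL (20.7% and 21.1% of all genes). For the change between the doses 11 and 1 of these passed.

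Some insulin-like growth factor binding proteins, 3 of the 6 tested, and part of the FOXO targets were higher with Poria. IGFBP1, a hepatic secreted protein repressed by insulin, was at 944, 1313 and 1226 CPM with Poria, against 310.4, 368 and 382 CPM with licorice (log2 1.72 ± 0.17, edgeR adjusted p = 3.58e-12). IGFBP3, the main carrier of these factors in blood, was at 7.71, 11.3 and 10.6 CPM with Poria, against 1.22, 1.35 and 1.24 CPM with licorice (log2 2.95 ± 0.17, edgeR adjusted p = 4.35e-20). IGFBP2, another binding protein, was at 18.4, 19.2 and 19.1 CPM with Poria, against 8.68, 9.08 and 9.24 CPM with licorice (log2 1.07 ± 0.094, edgeR adjusted p = 1.48e-13). With Poria all 3 rose over dose (2.15 ± 0.17, 2.98 ± 0.17 and 1.11 ± 0.094), whereas with licorice none of the 3 passed over dose in edgeR (0.048 ± 0.16, -0.33 ± 0.20 and -0.20 ± 0.10). IGFBP1 was at 113, 125 and 149 CPM with vehicle, below all 20 µg/mL libraries. Of 11 tested genes of the IGF list, 6 were higher and 0 lower at 500 µg/mL (20.7% and 21.1% of all genes). For the change between the doses 4 passed.

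DEPP1, a gene induced by FOXO factors, was at 38.6, 34.8 and 33.2 CPM with Poria, against 14.4, 12.1 and 13.2 CPM with licorice (log2 1.42 ± 0.10, edgeR adjusted p = 8.76e-17). PCK1, which commits carbon to gluconeogenesis, was at 14.9, 19.7 and 19.7 CPM with Poria, against 6.67, 7.4 and 7.36 CPM with licorice (log2 1.34 ± 0.11, edgeR adjusted p = 8.92e-15). Both rose over dose with Poria (0.99 ± 0.10 and 0.43 ± 0.10) and fell with licorice (-0.37 ± 0.11 and -0.78 ± 0.11). G6PC1, which releases glucose at the end of the same pathway, was on the contrary lower with Poria at 500 µg/mL, at 12.8, 11.3 and 11.1 CPM with Poria, against 17.1, 16 and 16.1 CPM with licorice (log2 -0.48 ± 0.10, edgeR adjusted p = 0.000119), and higher at 20 µg/mL (0.48 ± 0.10), so its difference turned round between the doses. Of 21 tested FOXO and gluconeogenesis genes, 12 were higher and 4 lower at 500 µg/mL (20.7% and 21.1% of all genes). For the change between the doses 8 and 4 passed.

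Cell cycle genes were lower with Poria, all of the mitosis list and most of the replication list. All 33 genes listed for mitosis and the G2/M phase were tested and lower at 500 µg/mL, with a median of -0.54, and 31 passed for the change between the doses. KIF20A, a kinesin of cytokinesis, was at 55.6, 52.6 and 53.6 CPM with Poria, against 99.1, 92.3 and 88.3 CPM with licorice (log2 -0.79 ± 0.054, edgeR adjusted p = 3.24e-17). CCNB2, a mitotic cyclin, was at 42.1, 45.9 and 45.2 CPM with Poria, against 75.6, 71.4 and 73.2 CPM with licorice (log2 -0.73 ± 0.043, edgeR adjusted p = 1.52e-19). BUB1B, a kinase of the spindle checkpoint, was at 57.8, 53.6 and 52.3 CPM with Poria, against 88, 86.4 and 89.1 CPM with licorice (log2 -0.69 ± 0.041, edgeR adjusted p = 1.68e-19). For each of the 33 genes every Poria library lay below every licorice library, against 25.5% of all genes. Over dose 32 fell and 0 rose with Poria (21.2% and 22.3% of all genes). With licorice 1 fell and 3 rose (10.3% and 11% of all genes). The medians over dose were -0.43 with Poria and -0.022 with licorice.

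In the list for S phase and DNA replication, 27 of 33 tested genes were lower and 0 higher with Poria (21.1% and 20.7% of all genes). The median was -0.27, and 26 passed for the change between the doses. PRIM1, the catalytic subunit of primase, was at 20.6, 18.7 and 21.8 CPM with Poria, against 30.5, 30 and 31 CPM with licorice (log2 -0.58 ± 0.056, edgeR adjusted p = 2.29e-12), and MCM2, of the replicative helicase, differed by -0.40 ± 0.037. Over dose 26 fell and 1 rose with Poria (21.2% and 22.3% of all genes), and 2 fell and 7 rose with licorice (10.3% and 11%). Among 26 tested p53 targets 5 were higher and 13 lower at 500 µg/mL (20.7% and 21.1% of all genes), the higher ones near that share. CDKN1A, the cell cycle inhibitor p21, was among the higher ones (log2 0.23 ± 0.049, edgeR adjusted p = 0.000166), with GDF15, a secreted stress factor, at 567 CPM with Poria and 366 CPM with licorice on average (log2 0.63 ± 0.06, edgeR adjusted p = 1.52e-12).

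Lipid genes differed in both directions within their lists; of all genes, 20.7% were higher and 21.1% lower with Poria at 500 µg/mL. HMGCS1, which starts the mevalonate pathway, was at 624, 615 and 618 CPM with Poria, against 424, 431 and 433 CPM with licorice (log2 0.53 ± 0.033, edgeR adjusted p = 1.09e-18); over dose it fell with both (-0.10 ± 0.033 with Poria and -0.64 ± 0.033 with licorice). TM7SF2, a sterol reductase late in the pathway, was lower with Poria, at 41, 42 and 41.1 CPM with Poria, against 72.7, 76.4 and 78.1 CPM with licorice (log2 -0.87 ± 0.057, edgeR adjusted p = 4.52e-18). Of 24 tested genes of cholesterol synthesis and uptake, 8 were higher and 6 lower at 500 µg/mL, while over dose 19 fell and 1 rose with Poria and 22 fell and 0 rose with licorice, 18 falling with both against 5.06% of all genes.

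PLIN2, which coats lipid droplets, was at 582, 719.7 and 719 CPM with Poria, against 270.3, 274 and 281 CPM with licorice (log2 1.29 ± 0.11, edgeR adjusted p = 1.35e-13), with a rise over dose with Poria (1.12 ± 0.11) and a fall with licorice (-0.34 ± 0.11). CD36, a fatty acid transporter, was at 4.09, 3.89 and 3.55 CPM with Poria, against 8.99, 9.32 and 9.2 CPM with licorice (log2 -1.25 ± 0.11, edgeR adjusted p = 1.90e-13). HADH, of mitochondrial beta oxidation, was lower with Poria (log2 -0.88 ± 0.052, edgeR adjusted p = 1.71e-19), as was GPAM, which starts glycerolipid synthesis (log2 -0.53 ± 0.044, edgeR adjusted p = 1.30e-14), and DGAT1, which completes it (log2 -0.84 ± 0.057, edgeR adjusted p = 1.77e-17). Of 21 tested PPAR alpha and fatty acid oxidation genes 8 were higher and 9 lower, and of 19 genes of fatty acid and triglyceride synthesis 4 were higher and 9 lower. In the LXR list 1 of 11 was higher, the cholesterol exporter gene ABCA1 (log2 0.57 ± 0.076, edgeR adjusted p = 1.38e-08), and 5 were lower. Among the 5 was NR1H4, the gene of the bile acid receptor FXR, which is counted in the bile acid list as well.

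Bile acid genes differed at several points. BAAT, which conjugates bile acids to amino acids, was at 16.4, 18.4 and 20.3 CPM with Poria, against 5.42, 6.58 and 5.93 CPM with licorice (log2 1.62 ± 0.094, edgeR adjusted p = 6.43e-20). NR1H4, which encodes the bile acid receptor FXR, was at 23.6, 24.1 and 21.7 CPM with Poria, against 45, 44.1 and 46.6 CPM with licorice (log2 -0.97 ± 0.057, edgeR adjusted p = 1.46e-19). NR0B2, a repressor that FXR induces, was higher with Poria (log2 0.76 ± 0.087, edgeR adjusted p = 3.24e-10). CYP7A1, which sets the pace of bile acid synthesis, fell over dose with both extracts (-1.0 ± 0.12 with Poria and -0.89 ± 0.13 with licorice) and did not differ beyond its error at 500 µg/mL (0.12 ± 0.14, edgeR adjusted p = 0.551). Of the 12 tested genes 3 were higher and 6 lower. Among PXR and CAR targets 2 of 10 were higher and 3 lower, near the shares of all genes (20.7% and 21.1%). UGT1A1, which conjugates bilirubin and shares exons with the other UGT1A genes, rose over dose with both extracts (0.97 ± 0.065 with Poria and 1.29 ± 0.062 with licorice).

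Hepatocyte genes were split in the same way. SERPINA1, alpha-1-antitrypsin, was at 14050, 13290 and 14090 CPM with Poria, against 9133, 9454 and 8628 CPM with licorice (log2 0.61 ± 0.045, edgeR adjusted p = 4.47e-16). AHSG, fetuin A, was higher too (log2 0.69 ± 0.051, edgeR adjusted p = 5.23e-16). FGA, a fibrinogen chain, was lower (log2 -0.47 ± 0.036, edgeR adjusted p = 9.21e-16), as were CEBPA, a factor of hepatocyte identity (log2 -0.73 ± 0.07, edgeR adjusted p = 2.37e-12), and GNMT, a glycine methyltransferase (log2 -0.94 ± 0.17, edgeR adjusted p = 1.20e-05). Of 29 tested genes 7 were higher and 12 lower (20.7% and 21.1% of all genes). The summed level of the list was 81130 to 82820 CPM with Poria, against 66200 to 68410 CPM with licorice. Over dose 16 fell with Poria and 22 with licorice, 14 with both, where 21.2%, 10.3% and 5.06% of all genes did.

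Many protein folding and clearance genes were higher with Poria. EDEM1, of degradation from the endoplasmic reticulum, was at 65.7, 74.5 and 75.3 CPM with Poria, against 43.5, 40.6 and 42 CPM with licorice (log2 0.77 ± 0.057, edgeR adjusted p = 4.29e-16), and the chaperone gene HYOU1 differed by 0.36 ± 0.035. Of 26 tested genes of this list 14 were higher and 2 lower, and the 14 passed for the change between the doses. Of all genes, 20.7% were higher and 21.1% lower at 500 µg/mL, the shares to set beside each list of this paragraph. CTSB, a lysosomal protease, was at 489, 501 and 517 CPM with Poria, against 307, 299.6 and 306 CPM with licorice (log2 0.72 ± 0.04, edgeR adjusted p = 9.56e-21). WIPI1, of autophagosome formation, was higher too (log2 0.64 ± 0.046, edgeR adjusted p = 1.62e-16). In the list for autophagy and lysosome 17 of 33 were higher and 5 lower, and 14 and 0 of these passed for the change between the doses. Heat shock genes went the other way at 500 µg/mL, with 1 higher and 10 lower of 20, and 1 and 1 of these passed for the change between the doses. After subtracting the Atractylodis Rhizoma and Panax Ginseng pair 3 heat shock genes were lower. ATF4 targets were divided, with 6 higher and 10 lower of 24, the higher ones near the share of all genes. TRIB3 was higher (0.34 ± 0.054) and PHGDH, of serine synthesis, lower (-0.39 ± 0.045). NUPR1, a stress-induced nuclear protein, was at 5.98, 5.28 and 5.72 CPM with Poria, against 19, 18.5 and 16.1 CPM with licorice (log2 -1.66 ± 0.11, edgeR adjusted p = 1.78e-17).

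For mitochondrially encoded genes, 4 of 13 passed at 500 µg/mL, all higher with Poria, as were 20.7% of all genes. For the change between the doses 0 passed. The summed CPM of the 13 was 95460, 84830 and 95180 with Poria, against 83260, 75660 and 63370 with licorice at 500 µg/mL, and 95640, 89290 and 76470 with Poria, against 80460, 60500 and 63300 with licorice at 20 µg/mL. The sums of the extracts did not overlap at 500 µg/mL and overlapped at 20 µg/mL, where 0 of the 13 passed and the median log2 difference was 0.46. The count at 500 µg/mL was 13 with no filter on low counts, 11 when only the libraries compared entered the fit and 0 after subtracting the Atractylodis Rhizoma and Panax Ginseng pair. The calls for the MT-CO genes depended on single libraries. Without licorice replicate 3 the edgeR adjusted p was 0.163 for MT-CO1, 0.144 for MT-CO2 and 0.229 for MT-CO3. MT-CO1 also lost its call without Poria replicate 1, MT-CO2 without Poria replicate 3, and MT-CO3 without any Poria replicate or licorice replicate 1 and with DESeq2, whereas MT-ND1 passed whichever of the 6 libraries was left out.

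The largest differences at 500 µg/mL included several genes outside the pathway lists. PDGFRB, a receptor tyrosine kinase for platelet-derived growth factor and a member of the fibroblast marker list, was at 12.9, 14.3 and 12.6 CPM with Poria, against 2.29, 2.41 and 2.59 CPM with licorice (log2 2.45 ± 0.10, edgeR adjusted p = 4.26e-25). The 20 µg/mL libraries overlapped, at 7.04, 6.94 and 5.91 CPM with Poria, against 6.39, 6.75 and 6.72 CPM with licorice. Over dose it rose with Poria (1.0 ± 0.087) and fell with licorice (-1.44 ± 0.11). TNS1, which links integrins to actin, was at 27.1, 31.9 and 34.9 CPM with Poria, against 4.24, 5.28 and 4.47 CPM with licorice (log2 2.75 ± 0.16, edgeR adjusted p = 1.67e-19). TUBB1, a beta tubulin best known from platelets, was at 12.8, 20.9 and 19.5 CPM with Poria, against 2.22, 2.7 and 2.52 CPM with licorice (log2 2.83 ± 0.28, edgeR adjusted p = 3.16e-12). ITGA10, a collagen-binding integrin chain, was at 8.64, 9.97 and 9.74 CPM with Poria, against 1.56, 1.8 and 2.25 CPM with licorice (log2 2.33 ± 0.17, edgeR adjusted p = 1.08e-16). SPINT1, an inhibitor of serine proteases, was at 12.8, 11.8 and 11.1 CPM with Poria, against 2.88, 2.9 and 2.78 CPM with licorice (log2 2.06 ± 0.10, edgeR adjusted p = 3.73e-22). CHST15, a sulfotransferase (2.06 ± 0.19), PLCH2, a phospholipase C (2.33 ± 0.20), and LINC03033, a long non-coding RNA (3.19 ± 0.25), complete the 12 largest rises with CA9, PFKFB3, EGR1 and IGFBP3. The 12 largest falls include, beside genes given above, PTGDR2, a prostaglandin receptor (-1.35 ± 0.10), SLC23A1, a vitamin C transporter (-1.33 ± 0.11), and ARHGAP33 (-1.23 ± 0.15). DKK1, a secreted inhibitor of Wnt signalling, fell over dose with both extracts (-0.38 ± 0.074 with Poria and -1.07 ± 0.076 with licorice) and was 1.6-fold higher with Poria at 500 µg/mL.

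Marker lists of other cell types held LYZ at a high level and a few other expressed genes. Among the 15 libraries of Poria, licorice and vehicle, CD68 reached 2209 counts in a library and ACTA2 2021. The summed level of 12 blood cell markers was 2244 to 2770 CPM with Poria, against 1526 to 1715 CPM with licorice, and nearly all of it was LYZ, lysozyme, at 2483 CPM with Poria and 1571 CPM with licorice on average, while PTPRC, MS4A1 and FCGR3A had 0 counts. The 12 fibroblast and stellate cell markers, PDGFRB among them, summed to 72.0 to 75.4 CPM with Poria, against 68.3 to 73.7 CPM with licorice, with COL1A2 and DCN at 0 counts. The 10 markers of lung and breast epithelial lines summed to 0.849 to 1.18 CPM with Poria, against 0.3004 to 0.491 CPM with licorice. The part of these markers in the results above was not tested.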

How the data were processed

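RNA of HepG2 cells was sequenced with paired reads of 100 bases. The authors deposited 1 table of RSEM expected counts, 60675 genes by 270 columns, and per the submitters' processing notes used FastQC 0.11.9, Trim Galore 0.6.5, STAR 2.7.3a and RSEM 1.3.3 with hg38; the annotation release is not given in the sources used here. RSEM divides reads shared by paralogs by estimate. Of the columns 60 matched samples by name and 210 were not used. Expected counts (76.1% of values above 0 were whole) were rounded. Groups were taken from the labels, 3 libraries each. Counts were fitted in edgeR 4.0.16 (R 4.3.3, limma 3.58.1) by its quasi-likelihood test, with TMM scaling, a filter on low counts (minimum count 10) that left 16093 genes, 1 mean for each of 20 groups over all 60 libraries and 40 residual degrees of freedom; p-values were adjusted by Benjamini-Hochberg over all tested genes, with a threshold of 0.05. The ± beside a log2 fold change is the standard error, computed from the log2 value and its F statistic. Tables and figures used Python 3.11.15, pandas 2.3.3, numpy 2.4.6 and matplotlib 3.10.9. The fit was tested on simulated data. Alternatives were DESeq2 1.42.0 and its size factors, other filters, a replicate block, only the libraries compared, subtraction of the pair Atractylodis Rhizoma and Panax Ginseng, and leaving out each replicate. Named genes are the 12 largest rises and falls at 500 µg/mL that also passed for the difference between the doses with the same sign, had at least 5 CPM in 1 group and no overlap, a fixed set of further genes, and up to 5 per list by smallest p; further list members are named as examples. The comparison, the lists and these genes were chosen with earlier results of these data known. Promoter sequences are from RefSeq. Results for some genes that the rule names are not reported here.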

Additional observations from a re-analysis of the deposited data

Results flagged for a closer look

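The change over dose differed between Poria and licorice for 4155 genes, by the edgeR test of the difference itself at an adjusted p of 0.05. Among the genes named by rule and reported here, 33 passed that test and also passed over dose with each extract in opposite directions. In each case the value given is the log2 change between 500 and 20 µg/mL with Poria minus that with licorice. The directions are those between the doses and need not hold against vehicle.

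With a rise over dose with Poria and a fall with licorice stood LINC03033 (3.79), TUBB1 (3.02), TNS1 (2.81), CA9 (3.30), PDGFRB (2.44), PFKFB3 (2.69), CHST15 (2.25), NDRG1 (1.81), BAAT (1.37), DEPP1 (1.36), PCK1 (1.22) and PLIN2 (1.46). Others of the same kind were RELB (1.23), ALDOC (1.05), ICAM1 (0.93), NR0B2 (0.76), AHSG (0.72), TTR (0.66), WIPI1 (0.67), SERPINA1 (0.60), LPIN1 (0.68), TXNIP (0.58) and TNFAIP3 (0.48). With a fall over dose with Poria and a rise with licorice stood LPCAT3 (-0.40), RFC5 (-0.53), PRIM1 (-0.73), CCNA2 (-0.56), BUB1B (-0.64), HADH (-0.77), GSTA2 (-1.42), CD36 (-1.35), ID3 (-1.01) and HAMP (-3.93). HAMP had the largest of the falls among these, with 3 Poria libraries at 500 µg/mL below every other library given here. GSTA2 shares reads with GSTA1, whose sum with it is given in the report. Against vehicle, licorice at 500 µg/mL was lower for TUBB1, TNS1, CA9, PDGFRB, BAAT and PCK1. It did not pass for LINC03033, PFKFB3, CHST15, NDRG1 and DEPP1, and it was higher for PLIN2 (0.38 ± 0.11). What the 33 genes have in common beyond the direction was not tested.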

How the results depend on the processing

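The numbers of the replicates were not treated as pairing, since the deviations of same-numbered libraries correlated only weakly. The correlations were 0.084, 0.037 and 0.042 between Poria 500 and licorice 500, and 0.01, -0.034 and 0.031 at 20 µg/mL. Libraries with different numbers gave -0.044 to 0.003 at 500 µg/mL and -0.054 to 0.041 at 20 µg/mL. The same-numbered values were thus the higher ones at 500 µg/mL. With a replicate block the count at 500 µg/mL was 6816, that at 20 µg/mL 195 and that of the difference between the doses 4286. The count for Poria against licorice at 20 µg/mL was 123 with at least 1 CPM (68.3% of them higher with Poria, against 52.2% of the 67), 615 with no filter, 14 with only the libraries compared, 259 with DESeq2, and 7 to 617 without 1 replicate; the cause was not tested. The count for Atractylodis Rhizoma against Panax Ginseng was 1299 with no filter, 1652 with only the libraries compared, 1139 with DESeq2, and 29 to 570 without 1 replicate. Subtracting that pair from Poria against licorice at 500 µg/mL, which adds the error of 6 libraries, left 4068 genes. It also left fewer members lower with Poria, 3 in place of 6 in the thioredoxin list and 2 in place of 4 aldo-keto reductases. The LXR list kept 3 in place of 5 and the autophagy list 1 in place of 5. Fewer members were higher, 0 in place of 2 in the aryl hydrocarbon receptor list and 2 in place of 4 in the fatty acid synthesis list. Without 1 replicate the other counts were 5915 to 6252 for Poria against licorice at 500 µg/mL, 3638 to 4080 for the difference between the doses, 6081 to 6513 and 2738 to 2895 for the change over dose with Poria and licorice, and 6888 to 7168 and 4203 to 4705 for Poria and licorice at 500 µg/mL against vehicle. Of the values of single genes under these alternatives, 5066 kept direction and side of the threshold, 64 lost the call, 18 gained it and 0 reversed. HMOX1 at 500 µg/mL lost its call after the subtraction and without Poria 500 replicate 2 or licorice 500 replicate 2. Depth limits statements on CYP1A2 and CYP1B1 with Poria, at most 3 and 1 counts a library.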
